A study of Mus musculus with 12 samples.

Results

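Gluconeogenesis is the making of new glucose from lactate, amino acids and glycerol, and glycogen is the store of glucose that the liver fills before birth and draws on after it. Of the 22597 genes in the P3 lists and the 31053 in the E16.5 lists, 8 genes of these pathways were followed here by their symbols in the deposited gene lists. Pck1, Fbp1 and G6pc encode the enzymes of the committed steps of gluconeogenesis, Tat breaks down tyrosine, Slc2a2 carries glucose across the hepatocyte membrane, Gys2 builds glycogen, Pygl releases glucose units from it, and Ppargc1a encodes a transcriptional coactivator of fasting genes. At birth the supply of glucose from the placenta ends, and the newborn liver is known to switch on gluconeogenesis under glucagon and glucocorticoid signals while insulin holds it back.

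The cells came from whole livers of mouse embryos at E16.5 and pups at P3 (postnatal day 3) with the genotypes Jag1+/+, Jag1Ndr/+ and Jag1Ndr/Ndr, where Ndr is the Nodder missense allele of the Notch ligand gene Jag1, carried in every cell of the animal. No further transgene or agent is named in the labels. The 12 deposited matrices held 9 separate libraries, and their labels limited the comparisons. At E16.5 there were Jag1+/+ replicate 1, a shared library deposited identically as Jag1+/+ replicate 2 and Jag1Ndr/+ replicate 2, Jag1Ndr/+ replicate 1, and Jag1Ndr/Ndr replicates 1 and 2; values at E16.5 are given in this order. At P3, libraries A and B were each present under a wild-type and a homozygous label, so that their genotype is unclear; B was also present under a heterozygous one. Library C carried only the Jag1Ndr/Ndr label, in a deposited sample that also held library A, and library D only the Jag1Ndr/+ label. Per the labels, pups with the homozygous label were recognised by jaundice, and TrypLE was used in the digestion at E16.5 only. The stage is therefore confounded with the digestion, with the software version and with the gene list, and these cannot be told apart from age. Whether each library was a separate animal is stated by the design text for the study as a whole, which gives 2 individuals per genotype and stage.

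Of the clusters of cells, those named hepatocyte-like held 680 cells at E16.5 and 600 at P3. Their leading genes included Alb, Afp, Ahsg and Apoa1, and all 12 hepatocyte markers were detected in every library. A library contributed 89 to 221 such cells at E16.5 and 50 to 293 at P3, with median depths of 18306 to 27800 UMIs (unique molecular identifiers, each 1 captured transcript) against 2016 to 8588 UMIs. The 11 erythroid markers took 4.77 to 7.63% of UMIs in these cells at E16.5 and 0.707 to 1.86% at P3. Alb, the albumin gene, measured 53520 to 73670 CPM (the count scaled to the same total of UMIs in every sum) at E16.5 and 17210 to 30990 CPM at P3. Libraries A and B stood apart from C and D. The 12 hepatocyte markers took 12.0 and 11.5% of the summed UMIs in A and B, 17.6% in both C and D, and 13.9 to 19.4% at E16.5. The part that these differences in depth and composition play in the results below was not tested.

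The promoters of 4 members that differed most between the stages are printed here, because 2 of them hold a match to a variant of the element through which cyclic AMP, the messenger of glucagon, is known to act on liver genes. They span 250 bases before to 50 bases after the start of the gene in RefSeq (GRCm38.p6), from which the sequences come. The RefSeq start lies downstream of the GENCODE gene start, which is used for the gene positions given further on, by 25 bases for Pck1, 155 for G6pc and 3805 for Pygl; for the other 4 the starts are at most 1 base apart. Promoters were found for 7 of the 8 members; Gys2 had none in the table. Capitals mark matches, on either strand, to TTACGTNA or CAAAACA.
Pck1 (chr2:173152823-173153122, plus strand): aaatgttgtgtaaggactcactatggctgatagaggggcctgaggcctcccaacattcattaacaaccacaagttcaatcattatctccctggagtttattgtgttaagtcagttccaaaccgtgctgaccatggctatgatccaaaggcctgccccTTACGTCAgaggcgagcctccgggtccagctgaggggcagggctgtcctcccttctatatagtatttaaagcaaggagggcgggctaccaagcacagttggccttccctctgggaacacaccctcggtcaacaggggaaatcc
G6pc (chr11:101367466-101367765, plus strand): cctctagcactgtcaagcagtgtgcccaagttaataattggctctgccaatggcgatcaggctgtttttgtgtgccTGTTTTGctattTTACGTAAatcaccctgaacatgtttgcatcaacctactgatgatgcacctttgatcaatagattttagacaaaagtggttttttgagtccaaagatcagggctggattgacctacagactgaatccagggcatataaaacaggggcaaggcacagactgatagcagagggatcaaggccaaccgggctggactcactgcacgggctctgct
Fbp1 (chr13:62888233-62888532, minus strand): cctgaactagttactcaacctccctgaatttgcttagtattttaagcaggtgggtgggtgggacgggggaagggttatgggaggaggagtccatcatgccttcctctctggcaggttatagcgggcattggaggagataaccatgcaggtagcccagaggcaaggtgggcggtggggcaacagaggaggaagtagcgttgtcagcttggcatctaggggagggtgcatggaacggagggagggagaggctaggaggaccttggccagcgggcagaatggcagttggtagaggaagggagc
Tat (chr8:109990186-109990485, plus strand): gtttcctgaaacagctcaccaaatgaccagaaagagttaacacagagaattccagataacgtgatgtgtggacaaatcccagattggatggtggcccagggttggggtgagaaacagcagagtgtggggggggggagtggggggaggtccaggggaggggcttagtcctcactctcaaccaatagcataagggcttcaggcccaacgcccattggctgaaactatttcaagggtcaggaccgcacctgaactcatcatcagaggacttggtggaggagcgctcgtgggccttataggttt

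TTACGTNA was found in the Pck1 window 93 bases before the RefSeq start and in the G6pc window 162 bases before it, where it reads the same on both strands. Counted from the GENCODE gene starts, these distances are 68 and 7 bases. It was in 2 of 7 member promoters and in 0.898% of the 32851 promoters of this length. CAAAACA, a form of the FoxO motif, was found in the G6pc window alone, 174 bases before the RefSeq start, and in 6.28% of all promoters. AGGTCA, a core motif of nuclear receptors, was in the windows of G6pc, Slc2a2 and Pygl and in 16.3% of all promoters. TATAAA was in the G6pc window and in 13.6%. The full palindrome TGACGTCA was in none of the 7 windows and in 1.79% of all promoters. These matches are letters in a window and were not tied to the transcript levels by any test.

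Pck1 encodes the cytosolic phosphoenolpyruvate carboxykinase, which turns oxaloacetate into phosphoenolpyruvate. The gene (ENSMUSG00000027513) lies on chromosome 2 from 173153048 to 173159273, plus strand, GRCm38, and has up to 10 exons in a transcript. In hepatocyte-like cells at E16.5 it measured 0.454, 13.6, 3.53, 0 and 4.0 CPM, from 1, 58, 13, 0 and 15 UMIs. At P3 it measured 840.6, 829, 467 and 725 CPM in libraries A to D. The 2 stages did not overlap, and the shared library held 58 of the 87 UMIs at E16.5. The library at 0, Jag1Ndr/Ndr replicate 1, had an upper limit of 1.34 CPM (exact Poisson 95% interval; intervals of this kind cover counting error only). The log2 fold change of P3 against E16.5 was 7.43 (SE 0.616, n = 4 and 5 libraries), and its p adjusted over all classes and genes (edgeR quasi-likelihood fit, Benjamini-Hochberg) was 1.14e-06. Pck1 entered this fit through its P3 counts, so that the fold and its p are a description and support nothing further.

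G6pc encodes the catalytic subunit of glucose-6-phosphatase, which frees glucose for export. It (ENSMUSG00000078650) lies on chromosome 11 from 101367561 to 101377903, plus strand, with up to 5 exons. Only 14 UMIs were counted at E16.5, as 3, 2, 2, 5 and 2 per library or 1.36, 0.468, 0.543, 1.82 and 0.533 CPM. The 5 UMIs of Jag1Ndr/Ndr replicate 1 were in 1 cell. At P3, 98.4, 49.9, 224 and 256 CPM were measured, from 476 UMIs in all. Every P3 library was above every E16.5 library, and libraries C and D were higher than A and B. The log2 fold change was 7.62 (SE 0.541), and the edgeR adjusted p was 2.72e-07. Without libraries A and B the log2 fold change was 8.31 (adjusted p 2.48e-09). G6pc entered both fits through its P3 counts, so that these values are a description and support nothing further.

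Fbp1 encodes fructose-1,6-bisphosphatase, the step between those of Pck1 and G6pc. It (ENSMUSG00000069805) lies on chromosome 13 from 62864753 to 62888282, minus strand, with up to 7 exons. Unlike the other enzymes of the pathway followed here, it was readily counted before birth, at 310, 61.7, 134, 287 and 69.6 CPM. At P3 it measured 952, 1005, 2003 and 1763 CPM. The groups did not overlap, with libraries C and D again above A and B, and the log2 fold change was 3.32 (SE 0.451, edgeR adjusted p 6.14e-05), or 3.73 without libraries A and B (0.00013). The E16.5 libraries spread 5.02-fold, with those of replicate 1 (310, 134 and 287 CPM) above those of replicate 2 (61.7 and 69.6 CPM). The 2 highest, Jag1+/+ replicate 1 and Jag1Ndr/Ndr replicate 1, and the 2 lowest, the shared library and Jag1Ndr/Ndr replicate 2, each included a homozygous library. The same 2 libraries were highest and the same 2 lowest in erythroid-like cells (10.6, 3.38, 5.40, 7.68 and 3.16 CPM). Pck1 was lowest in the 2 libraries where Fbp1 was highest.

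Tat encodes tyrosine aminotransferase, a textbook target of glucocorticoids and glucagon that comes on around birth. It (ENSMUSG00000001670) lies on chromosome 8 from 109990437 to 109999803, plus strand, with up to 12 exons. Its level was 1.81, 3.04, 2.44, 0.729 and 0.800 CPM at E16.5, from 31 UMIs in all, and 66.7, 43.9, 45.7 and 46.8 CPM at P3. All P3 libraries were above all E16.5 libraries, and library A was the highest. The log2 fold change was 5.01 (SE 0.296, edgeR adjusted p 4.43e-08). As with Pck1 and G6pc, Tat entered the fit through its P3 counts, so that these values support nothing further.

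**Figure D1:**
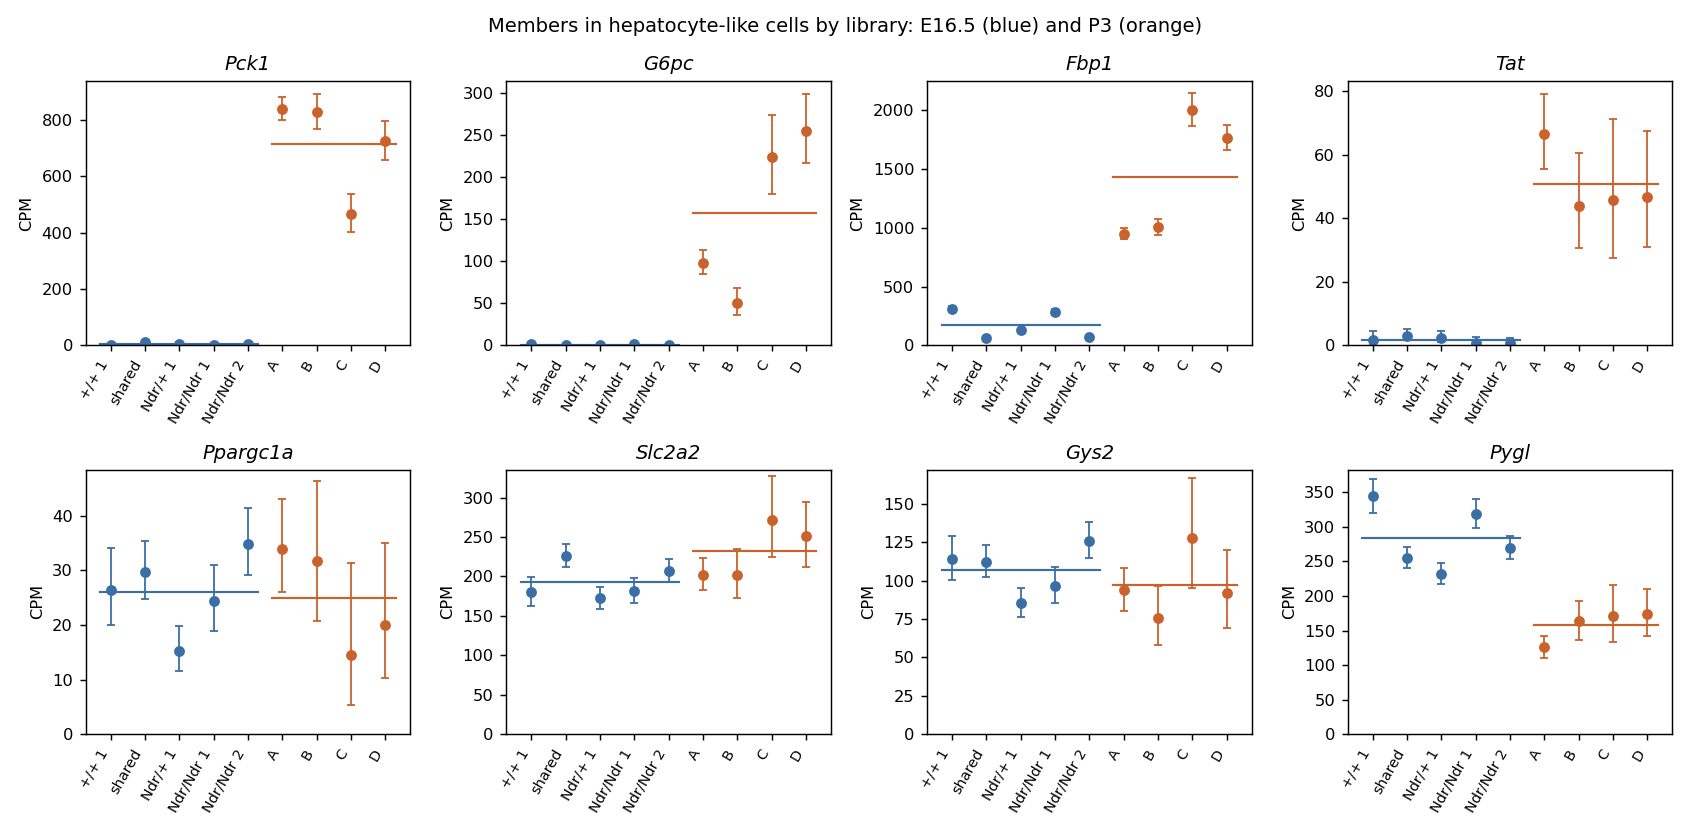
CPM of the 8 members in hepatocyte-like cells, 1 point per library (E16.5 blue, P3 orange; linear axes from 0), with exact Poisson 95% intervals for counting error as bars and the mean of each stage as a line. Pck1, G6pc, Fbp1 and Tat were higher in all 4 P3 libraries than in all 5 E16.5 libraries, Pygl was lower in all 4, and Ppargc1a, Slc2a2 and Gys2 overlapped; over all 9837 genes tested, the CPM of the stages did not overlap in 37.6% (11.9% higher and 25.7% lower at P3).

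Slc2a2 encodes GLUT2, the low-affinity glucose transporter of hepatocytes. It (ENSMUSG00000027690) lies on chromosome 3 from 28697903 to 28731359, plus strand, with up to 11 exons, and overlaps the antisense gene 1700112D23Rik; whether strand was used in counting is not given in the sources used here. It measured 180.2, 226, 172, 182 and 207.5 CPM at E16.5 and 202, 202, 272 and 251 CPM at P3, so that the stages overlapped. Its log2 fold change of 0.48 (SE 0.165) passed in edgeR with an adjusted p of 0.026. This is a fitted fold of 1.4, against a ratio of 1.197 between the plain CPM means. Slc2a2 was thus sensitive to the settings of the fit. The call no longer passed under 8 of 19 alternatives, among them leaving out either P3 library C (0.38, adjusted p 0.0761) or D (0.45, 0.0602), or 1 of 3 E16.5 libraries: Jag1+/+ replicate 1 (0.46, 0.0593), Jag1Ndr/+ replicate 1 (0.44, 0.0592) or Jag1Ndr/Ndr replicate 1 (0.46, 0.0568).

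Gys2 encodes the liver form of glycogen synthase. It (ENSMUSG00000030244) lies on chromosome 6 from 142422613 to 142473109, minus strand, with up to 17 exons. Its levels of 114, 112.5, 85.5, 96.6 and 126 CPM at E16.5 and 93.8, 75.5, 128 and 91.9 CPM at P3 overlapped. The log2 fold change was 0.07 (SE 0.185, edgeR adjusted p 0.784), and 0.26 without libraries A and B (0.384). The plain CPM means went the other way, with 107.0 ± 15.96 CPM (SD, n = 5) at E16.5 and 97.2 ± 21.9 CPM (SD, n = 4) at P3. The fit scales libraries by the trimmed mean of M-values (TMM) and not by plain CPM. The fitted fold was above the ratio of plain CPM means for every member, with 1.049 against 0.908 for Gys2. What turns the sign was not tested.

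Pygl encodes the liver glycogen phosphorylase and was the 1 member that was lower at P3. It (ENSMUSG00000021069) lies on chromosome 12 from 70190811 to 70231488, minus strand, with up to 20 exons, and overlaps the long non-coding RNA gene F730035M05Rik on the other strand. It measured 344.5, 255, 232, 318.5 and 269.6 CPM at E16.5 and 125.5, 163, 171 and 174 CPM at P3. The stages did not overlap, and the log2 fold change was -0.61 (SE 0.170, edgeR adjusted p 0.00903). Without libraries A and B it was -0.47 with an adjusted p of 0.0659, and with 3 further clusters included, which were led by hepatocyte markers but richer in markers of erythroid cells or neutrophils, it was -0.18 with an adjusted p of 0.285, so that the call rests on these choices. The added clusters were unlike between the stages. In the erythroid-rich ones Pygl measured 35.5 to 62.6 CPM at E16.5 and 11.3 to 57.5 CPM at P3. In the neutrophil-rich one, present at P3 only, it measured 372.5 to 640 CPM. Their part in the smaller change was not tested.

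Ppargc1a encodes PGC-1alpha, a coactivator through which fasting signals are known to act on gluconeogenic genes. It (ENSMUSG00000029167) lies on chromosome 5 from 51454250 to 51567726, minus strand, with up to 13 exons, and overlaps 4 further gene models. Its level was 26.3, 29.7, 15.2, 24.4 and 34.9 CPM at E16.5 and 33.9, 31.7, 14.4 and 20.1 CPM at P3. The stages overlapped throughout, and the log2 fold change of 0.27 (SE 0.279) had an edgeR adjusted p of 0.443. Without libraries A and B it was -0.33 (adjusted p 0.589). As with Gys2, the plain CPM means went the other way, with 26.1 ± 7.29 CPM (SD, n = 5) at E16.5 and 25.0 ± 9.29 CPM (SD, n = 4) at P3.

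In all, 5 members were called higher and 1 lower at P3, and 2 were not called, with a median log2 fold change of 1.90 against -0.05 over all 9837 genes tested. All 8 members passed the filter on low counts, which asks for a minimum level in 4 libraries. Pck1, G6pc and Tat reached it in 1, 0 and 0 of the E16.5 libraries and passed through their P3 counts, so that their presence in the test is tied to their being high there, and the count and the median above are a description that supports nothing further. Of all genes, 42.6% were called (21.5% higher and 21.1% lower), so that a call by itself was common in this comparison. Fbp1, which reached the minimum in both stages, kept its direction and its call under all 19 alternatives, with log2 fold changes of 3.09 to 3.73. Under the same alternatives the values ranged from 7.14 to 8.50 for Pck1, 7.25 to 8.31 for G6pc and 4.76 to 5.39 for Tat; with their place in the test fixed by P3, these ranges are no sign of stability. In bulk or summed data, fewer expressing cells and less RNA per cell cannot be told apart, and the shares of cells bear on that only in part.

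**Figure D2:**
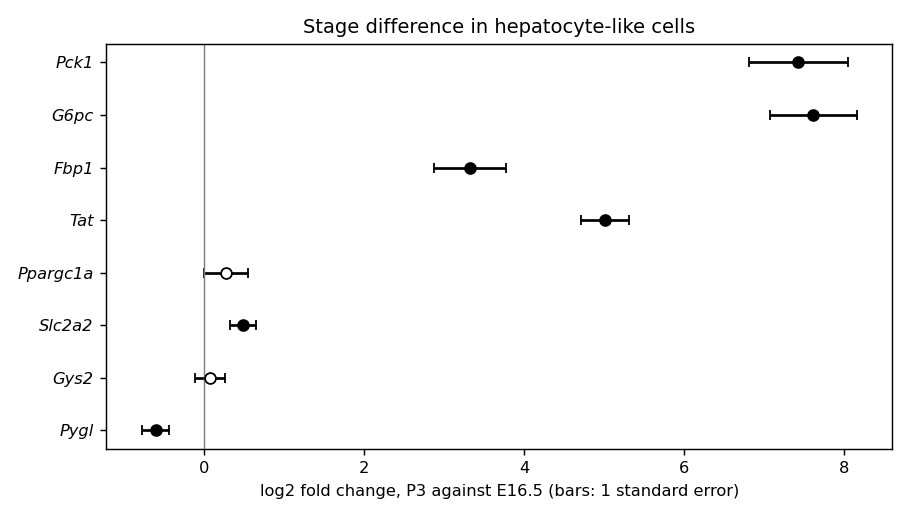
Log2 fold change of P3 against E16.5 in hepatocyte-like cells for each member (points, with 1 standard error as bars; filled where the edgeR adjusted p was under 0.05). Pck1, G6pc, Tat and Fbp1 lie between 3.32 and 7.62, whereas Slc2a2, Ppargc1a, Gys2 and Pygl lie between -0.61 and 0.48. Pck1, G6pc and Tat entered the test through their P3 counts, so that their filled points support nothing further.

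The share of hepatocyte-like cells with at least 1 UMI was higher at P3 for Pck1, G6pc, Fbp1 and Tat once each cell was thinned to 1000 UMIs, and did not follow the fitted change for every other member. At E16.5, 0 to 1.56% of thinned cells per library held Pck1, and at P3 this was 34.1 to 59.9%. Unthinned, they were 0 to 12.2% and 77.7 to 86.0%, with E16.5 cells several times deeper. In neutrophil-like cells, which should lack the gene, the thinned share at P3 was 0.195 to 0.809%, and the unthinned share was 0.938 to 6.02% at median depths of 4340 to 9161 UMIs (9108 to 13069 UMIs at E16.5). For G6pc, the thinned share in hepatocyte-like cells was 0.0517 to 0.256% at E16.5 and, at P3, 2.41 to 17.3%, against at most 0.105% in neutrophil-like cells at P3. Fbp1 was seen in 6.11 to 26.8% of thinned cells at E16.5 and 69.7 to 82.1% at P3, against 0.293 to 1.08% and 0.947 to 1.6% in neutrophil-like cells. Tat was seen in 0.0623 to 0.256% at the earlier stage and in 3.38 to 8.48% at the later one, against at most 0.00357% and 0.0695% in neutrophil-like cells. Pygl was seen in 20.1 to 29.1% of thinned cells at E16.5 and 12.4 to 17.1% at P3, without overlap; neutrophil-like cells hold this transcript themselves, and in erythroid-like cells the shares were 1.41 to 2.89% and 0.92 to 1.33%. The stages overlapped for Slc2a2 (16.4 to 20.0% and 8.35 to 21.0%), which was called higher in the fit, for Gys2 (7.69 to 10.7% and 7.46 to 12.7%) and for Ppargc1a (1.45 to 3.4% and 1.04 to 1.66%). In neutrophil-like cells the thinned share of these 3 was at most 0.198, 0.253 and 0.0938% at E16.5 and 0.102, 0.0903 and 0.0447% at P3. Unthinned, the hepatocyte-like shares at E16.5 and P3 were 52.5 to 92.1% and 91.4 to 98.0% for Fbp1, 0.905 to 2.25% and 13.5 to 64.0% for G6pc, and 1.98 to 6.2% and 15.3 to 30.0% for Tat. For the other 4 the unthinned share was higher in the deeper E16.5 cells, at 89.1 to 97.8% against 36.2 to 74.0% for Pygl, 86.1 to 97.8% against 25.2 to 74.0% for Slc2a2, 71.5 to 82.9% against 24.5 to 56.0% for Gys2, and 31.0 to 52.9% against 7.36 to 14.3% for Ppargc1a. The average thinned hepatocyte-like cell held UMIs of 0.586 to 0.872 of the 8 members at E16.5 and of 1.62 to 1.94 at P3.

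Across the named cell classes, the median over libraries of all 8 members was highest in hepatocyte-like cells at E16.5, and that of 7 members was at P3, with Pygl the exception. The classes were rebuilt from clusters of the same cells, so these levels are a description. In other classes at E16.5, Slc2a2 and Gys2 measured at most 1.77 and 2.06 CPM in neutrophil-like, 2.47 and 3.67 CPM in erythroid-like, 2.42 and 3.97 CPM in macrophage-like and 5.31 and 6.9 CPM in endothelial-like cells. Pck1 at P3 measured 13.1 to 38.7 CPM in endothelial-like, 9.85 to 26.3 CPM in macrophage-like and 1.41 to 7.21 CPM in erythroid-like cells. These were 2.05 to 4.66%, 1.36 to 3.12% and 0.194 to 0.858% of the level in hepatocyte-like cells of the same library. Alb, read the same way as a measure of hepatocyte RNA in other cells, was at 0.424 to 1.66%, 0.433 to 1.2% and 0.103 to 0.319%. Pck1 was called higher at P3 in 5 classes besides hepatocyte-like cells (B-like, endothelial-like, erythroid-like, macrophage-like and neutrophil-like; edgeR adjusted p between 1.67e-06 and 0.000242). It had 3, 2, 27, 1 and 6 UMIs at E16.5 in these classes and did not pass the filter there among the E16.5 libraries alone, so that it entered these tests through its P3 counts and the calls support nothing further. Over all classes, 47.0% of the 85106 class and gene pairs were called (23.9% higher and 23.1% lower). By class, this share of all genes tested was 59.2% in erythroid-like, 49.0% in neutrophil-like, 51.8% in B-like, about the same in monocyte-like (5310 of 10624 genes), 48.5% in macrophage-like, 32.3% in endothelial-like, 27.9% in mesenchymal-like and 52.3% in megakaryocyte-like cells, against which single calls are to be read. Here, the part of free hepatocyte RNA in the calls outside hepatocyte-like cells was not tested. Fbp1 was called higher in endothelial-like cells (log2 fold change 2.39, adjusted p 0.000642, where it too passed the filter through its P3 counts), neutrophil-like cells (1.09, 0.0221) and monocyte-like cells (1.03, 0.049). It was not called in macrophage-like (1.18, 0.0754), B-like (0.69, 0.158) or erythroid-like cells (-1.33, 0.0515). Other members were called lower outside hepatocyte-like cells. Gys2 was lower in erythroid-like (-3.99, 1.73e-06), neutrophil-like (-2.21, 0.000454), monocyte-like (-2.0, 0.00931) and B-like cells (-1.37, 0.00918). Slc2a2 was lower in erythroid-like cells (-2.67, 0.000668), and Ppargc1a in erythroid-like (-3.53, 0.00129) and B-like cells (-1.74, 0.000559). Of these calls, Gys2 in neutrophil-like, monocyte-like and B-like cells and Slc2a2 and Ppargc1a in erythroid-like cells passed the filter through their E16.5 counts alone (37, 16, 52, 116 and 13 UMIs at P3), so that they had to be lower at P3 and support nothing further. Alb in erythroid-like cells measured 493 to 769 CPM at E16.5 and 29.4 to 55.6 CPM at P3, and its part in these values was not tested.

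Pygl, whose enzyme releases glucose units from glycogen, was also abundant in neutrophil-like cells. There it measured 230, 198, 156, 256 and 191 CPM at E16.5 and 277, 432, 335.5 and 369 CPM at P3, and the stages did not overlap. The log2 fold change was 0.65 (SE 0.156, edgeR adjusted p 0.00492), opposite in sign to that in hepatocyte-like cells. Whether the 2 classes differed in their change was not tested. The neutrophil-like class pooled clusters led by Elane or Mpo with others. Clusters led by Elane or Mpo held 1910 and 1508 of its 9652 cells at E16.5 and 1524 of 10728 at P3. The part of this mix in the Pygl values was not tested. The share of all genes without overlap between the stages was not counted in this class. The level in neutrophil-like cells was 66.8 to 80.4% of that in hepatocyte-like cells at E16.5 and 196 to 265% at P3, below it in all 5 E16.5 libraries and above it in all 4 P3 libraries. Pygl was also called higher in monocyte-like cells (0.34, adjusted p 0.012) and lower in B-like (-1.74, 8.16e-05), erythroid-like (-1.28, 0.000165) and endothelial-like cells (-0.76, 0.0166). It was not called in macrophage-like (-0.14, 0.38), megakaryocyte-like (-0.14, 0.815) or mesenchymal-like cells (-0.04, 0.927). Hepatocyte-like cells, which were few, held 8.15 to 11.6% of the Pygl UMIs of a library at E16.5, and 1.63, 1.04, 0.955 and 2.16% in P3 libraries A to D. For Slc2a2 they held 55.9 to 76.8% at E16.5 and, at P3, 59.5 to 84.7%.

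**Figure D3:**
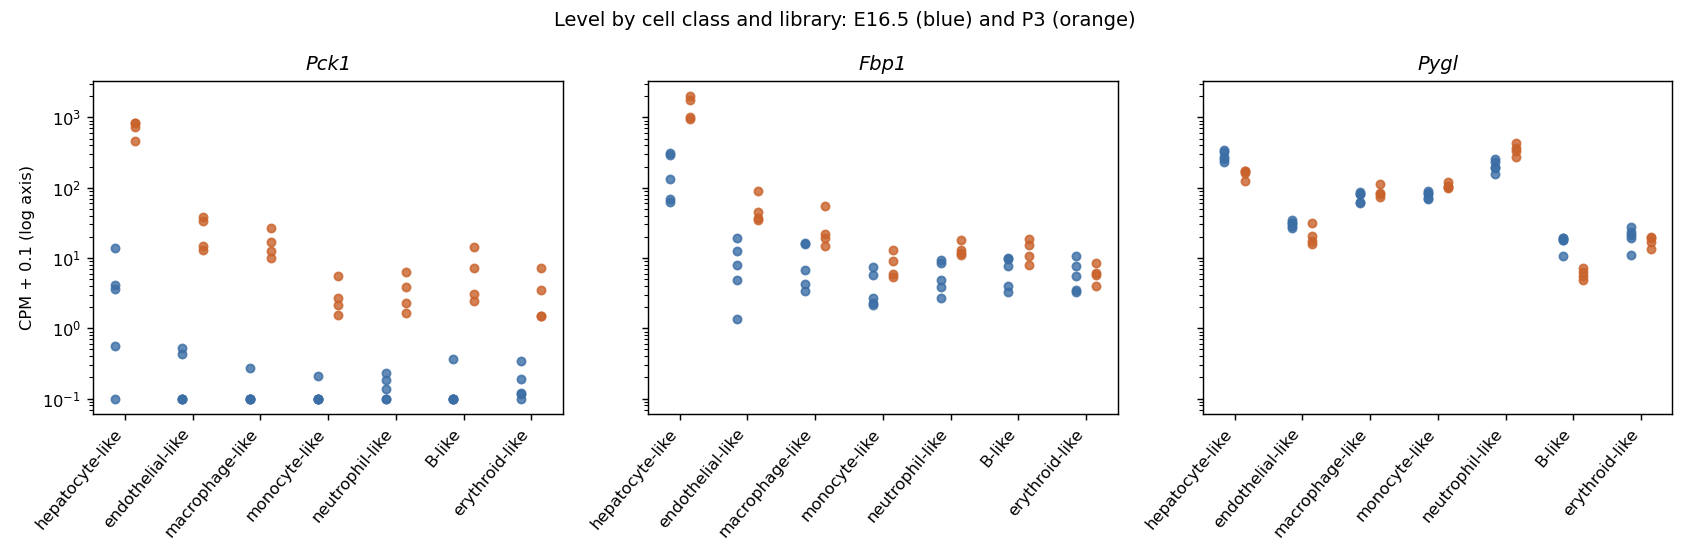
CPM (0.1 added, log axis) of Pck1, Fbp1 and Pygl in 7 cell classes, 1 point per library (E16.5 blue, P3 orange). Fbp1 was highest in hepatocyte-like cells of every library and Pck1 in all but Jag1Ndr/Ndr replicate 1 at E16.5, where it was at 0 there, while Pygl at P3 was higher in neutrophil-like cells (277 to 432 CPM) than in hepatocyte-like cells (125.5 to 174 CPM).

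The Nodder genotype was compared at E16.5, as the 2 Jag1Ndr/Ndr libraries against the 3 others. In hepatocyte-like cells, 6 of the 8 members were tested (G6pc and Tat did not pass the filter on low counts) and none was called. All had an edgeR adjusted p of 1. The mean of Pck1 was 2.0 ± 2.83 CPM in the homozygous libraries and 5.85 ± 6.85 CPM in the rest (SD; n = 2 and 3), with a log2 fold change of -1.45 (SE 1.18). Fbp1 measured 178 ± 154 CPM and 169 ± 128 CPM (0.13, SE 0.652). Under the 14 alternatives Pck1 ranged from -7.38 to 0.06 and Fbp1 from -1.13 to 0.87. Both turned sign when 1 library was left out. The other 4 had log2 fold changes of 0.40 (SE 0.311) for Ppargc1a, 0.17 (SE 0.210) for Gys2, 0.14 (SE 0.197) for Pygl and 0.07 (SE 0.200) for Slc2a2. Tat, not tested, was below the others in both homozygous libraries, on 2 and 3 UMIs. The share of all genes that separate in this way was not counted, so that nothing is read from it. Of the 11116 genes tested in hepatocyte-like cells, 0% were called by edgeR, and 224 had an unadjusted p under 0.05; DESeq2 called 3. Over all classes, 0 of 100366 class and gene pairs were called by edgeR, members included. The unadjusted p of edgeR was under 0.05 in 1773, and DESeq2 called 16. Both counts of unadjusted p are below a share of 0.05, which this threshold gives without any difference between the groups. No difference is therefore read from them. In simulated counts for hepatocyte-like cells, 88% of 4-fold and 34% of 2-fold changes were called. There the spread was set by its trend over genes, and p was adjusted over the 11116 genes alone and not over all classes. The share of changes that the fit itself would call is therefore not known.

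At P3 the genotype could be read only from 1 library each, without a test. Pck1 measured 467 CPM (Poisson 95% interval 404 to 537.5) in library C, labelled Jag1Ndr/Ndr, and 725 CPM (659 to 797) in library D, labelled Jag1Ndr/+. For the other 7 members the intervals of C and D overlapped. G6pc, for example, measured 224 CPM (181 to 274) and 256 CPM (217 to 299.6), and Fbp1 measured 2003 CPM (1869 to 2144) and 1763 CPM (1659 to 1873). The spread between animals is not known for either label at P3, so that no difference between genotypes can be read from these values.

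Genes around the members were described from 5 lists. Of those named below, Gys1, Ppp1r3b, Hk1, Hk2, Crtc2 and Serpina6 passed the filter on low counts through their E16.5 counts alone and Nr0b2 through its P3 counts alone, so that their presence in the test is tied to their being high at that stage. Of the other enzymes and carriers of gluconeogenesis, 18 of 21 were tested between the stages in hepatocyte-like cells, 12 were higher and 2 lower at P3, beside 21.5% and 21.1% of all genes, and the median log2 fold change was 0.79 against -0.05 over all genes. Agxt, which makes glycine and pyruvate from alanine, rose from 53.8 ± 31.3 to 590.3 ± 82.3 CPM (SD; log2 fold change 3.67, edgeR adjusted p 1.15e-05). Gpt, an alanine aminotransferase, rose by 2.42 (adjusted p 0.000133), and Pcx, which makes oxaloacetate from pyruvate, by 1.48 (1.8e-05). Slc16a1, a lactate transporter, fell by 1.65 (0.000123), and Gpt2 fell by 0.50 (0.0455). Pck2, the mitochondrial form of the Pck1 enzyme, was not called (-0.41, 0.217).

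Of the other glycogen genes, 18 of 24 were tested, 1 was higher and 7 were lower, with a median of -0.23. Over all genes 42.6% were called, 21.5% higher and 21.1% lower. Ppp1r3b, which brings a phosphatase to glycogen and so promotes its synthesis, went from 57.4 ± 10.3 to 9.47 ± 5.71 CPM (log2 fold change -2.09, edgeR adjusted p 5.35e-05). Gys1, the glycogen synthase of muscle, fell by 1.91 (0.00217), Stbd1, which binds glycogen, by 1.49 (0.000137) and Gbe1, the branching enzyme, by 1.46 (8.81e-05). Phkg2, a phosphorylase kinase subunit, rose by 0.68 (0.0445).

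Of 21 genes of glycolysis and glucose entry, 19 were tested, 3 were higher and 5 lower, with a median of -0.31, beside 21.5% higher and 21.1% lower among all genes. Slc2a1, the glucose transporter of most fetal cells, went from 90.5 ± 10.1 to 5.15 ± 0.640 CPM, on 19 UMIs at P3 (log2 fold change -3.92, edgeR adjusted p 2.93e-08). Hk2, a hexokinase, fell by 2.56 (0.000174) and Hk1 by 1.66 (0.0091). The regulators Pfkfb1 and Gckr rose by 1.03 (0.0032) and 0.99 (0.00753), and Gpi1 by 0.57 (0.0136). Slc2a1 is also known from erythroid cells, whose markers took a larger share of the E16.5 sums (4.77 to 7.63% against 0.707 to 1.86%), and their part in its difference was not tested.

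All 23 regulators and hormone receptors were tested, with 5 higher, 6 lower and a median of -0.06, near the shares over all genes (21.5% higher and 21.1% lower). Nr0b2, the nuclear receptor SHP that bile acids induce, went from 0.412 ± 0.179 to 53.4 ± 26.1 CPM (log2 fold change 7.10, edgeR adjusted p 8e-08). Gcgr, the glucagon receptor, rose from 16.01 ± 3.21 to 68.8 ± 21.7 CPM (2.26, 6.62e-06), and Creb3l3, a fasting-induced transcription factor, rose by 2.00 (3.99e-07). Hnf4a, a main hepatocyte transcription factor, rose by 0.74 (0.00197). Crtc2, a coactivator of the cyclic AMP response, fell by 2.19 (0.00448).

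The last list, headed as other liver genes induced around birth or by fasting hormones, held 15 genes, and the heading was not checked gene by gene. Of these, 12 were tested, 8 were higher and 1, Serpina6, was lower, with a median of 1.37, beside 21.5% higher and 21.1% lower among all genes. Cpt1a, which brings fatty acids into mitochondria, rose from 17.7 ± 3.15 to 252 ± 66.6 CPM (log2 fold change 4.07, edgeR adjusted p 8.45e-09). Hpd, the next enzyme of tyrosine breakdown after Tat, rose by 3.05 (5.57e-08) and Igfbp1 by 2.11 (5.93e-05). Serpina6, which encodes the plasma carrier of glucocorticoids, went from 1410 ± 452 to 6.67 ± 3.15 CPM (-7.61, 1.32e-08). Between genotypes at E16.5, 19, 19, 20, 22 and 12 genes of the 5 lists were tested in hepatocyte-like cells, in the order given. EdgeR and DESeq2 called 0 of them, and 0 had an unadjusted p under 0.05 in edgeR. Such values were rare over all genes tested there too (224 of 11116), so that their absence from the lists shows little.

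**Figure D4:**
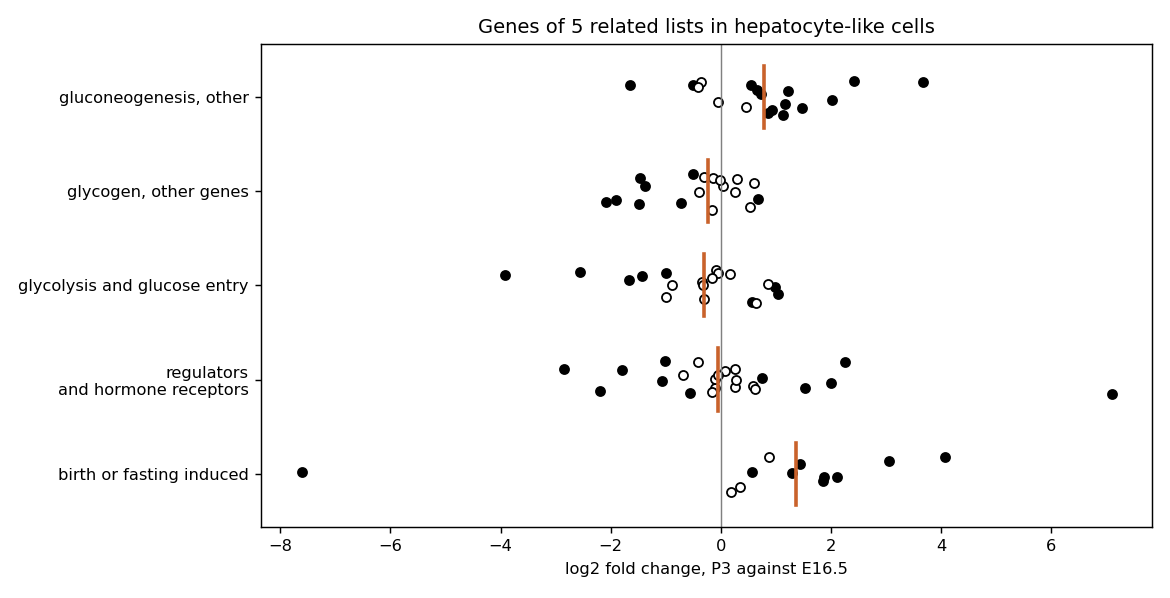
Log2 fold change of P3 against E16.5 in hepatocyte-like cells for each tested gene of the 5 lists (filled points, edgeR adjusted p under 0.05; orange lines, list medians; vertical position within a list has no meaning). The medians were 0.79, -0.23, -0.31, -0.06 and 1.37 from top to bottom.

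Over the 9 libraries, the mean profile of the 8 members in hepatocyte-like cells was most like that of Abcc2 (Pearson r 0.969), Mia3 (0.968), Ctsa (0.966), Cyp3a44 (0.964) and Kng1 (0.945), among 2302 genes with a mean of at least 50 CPM. The libraries of a stage share their protocol, so that these values mostly describe the step between stages. The correlation of single members with their own mean profile ran from 0.888 for G6pc through 0.020 for Ppargc1a to -0.661 for Pygl.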

How the data were processed

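Mouse liver cells were profiled by droplet single-cell RNA sequencing. The deposited values are UMI counts for each gene in each barcode, not normalised. The file headers name 10x Genomics software 3.0.2 for P3 and 3.1.0 for E16.5, and the submitters' processing notes name Cell Ranger 2.1.1, R 4.1.2, Seurat and mm10. Matrices that shared barcodes were reduced to 9 libraries, with 75745209 to 258642858 UMIs each; library C was the homozygous-labelled matrix without the barcodes of library A. Barcodes were kept from 1000 UMIs upward and up to 15% mitochondrial UMIs, and Scrublet (scanpy 1.11.5) removed 4.11 to 13.4% as doublets. Cells were clustered per stage (2000 variable genes without members and list genes unless they are markers, 30 components, 15 neighbours, Leiden resolution 1) and named from markers among the 10 leading genes; the names may differ from those of the authors.

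Of 5 clusters led by hepatocyte markers, 3, in which another class's markers held more UMIs of the median cell (39.8% against 1.52%, 71.0% against 0.459% and 31.4% against 1.06%), were set apart as mixed. That rule was settled after the leading genes, the marker shares and the members' levels in the clusters had been seen. The mixed clusters held 2.24 to 8.06% of kept cells at E16.5 and 0.439 to 1.64% at P3, against 0.513 to 1.2% and 0.354 to 1.51% for hepatocyte-like cells.

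UMIs were summed per library and class and tested with edgeR's quasi-likelihood test (TMM, filterByExpr, all genes in both lists, Benjamini-Hochberg over all classes and genes of a contrast, threshold 0.05), for classes with at least 20 cells in 2 libraries per group. Stage compared 4 P3 with 5 E16.5 libraries, and genotype compared 2 with 3. Tested on simulated counts, the stage fit called 88% of 4-fold and 63% of 2-fold changes among 9837 genes. The simulated spread followed its trend over genes, and p was adjusted within hepatocyte-like cells alone, unlike in the fits to the data. Coordinates are from GENCODE M21 (GRCm38) by Ensembl identifier. Named list genes were up to 3 rising and 2 falling per list by size among those called; Pcx, Pck2, Stbd1, Gbe1, Hk1 and Hnf4a were added after their values were seen, and some list genes that are counted are not reported by name here. The members and lists were chosen with earlier results of these data known.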

Additional observations from a re-analysis of the deposited data

Results flagged for a closer look

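Of 16 groups of values (8 members at 2 stages) 1 held a library far from the others. Tat measured 66.67 CPM in hepatocyte-like cells of P3 library A, and the gap to the next library was 0.871 of the whole range over the 4 P3 libraries, above the limit of Dixon's test at the 95% level for 4 values. Chance flags about 1 in 20 such groups.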

How the results depend on the processing

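The 2 replicate numbers shared by the E16.5 groups were not taken to pair the samples (correlations of deviations 0.15, 0.0315 and -0.105 over 11116 genes). The deviations of the 2 homozygous libraries from their mean mirror each other. These correlations are therefore not independent and cannot decide whether the numbers mark a pairing. Even so, some members in hepatocyte-like cells did not overlap between the replicate numbers. Fbp1 was higher in replicate 1, while Pck1, Slc2a2 and Ppargc1a were lower there. G6pc was separated only by 0.543 CPM (Jag1Ndr/+ replicate 1) against 0.533 CPM (Jag1Ndr/Ndr replicate 2), each from 2 UMIs. Tat, Gys2 and Pygl overlapped. The share of all genes without such overlap was not counted, so that nothing is read from these members. What lies behind the numbers was not tested. With the replicate number as a block, 4126 genes were called between stages in hepatocyte-like cells (4189 without it), 39159 over all classes (40002 without it), and 0 between genotypes in both.
Counts of stage calls stayed within 1.5 times of the main count under all 19 alternatives (3056 to 5144 in hepatocyte-like cells and 31756 to 44268 over all classes; leaving out 1 library gave 3719 to 4106 and 35998 to 39852). Between genotypes, DESeq2 called 3 genes in hepatocyte-like cells and 16 over all classes, and the fit without a filter on low counts called 52 and 366; leaving out 1 library gave 0 in hepatocyte-like cells and 0 to 39 over all classes (10 without Jag1+/+ replicate 1, 1 without Jag1Ndr/Ndr replicate 1, 39 without Jag1Ndr/Ndr replicate 2). The cause was not tested. None of the 6 members tested between genotypes in hepatocyte-like cells was called under any of the 14 alternatives, 2 of which take the same cells at E16.5; G6pc and Tat were not read there.
Single members whose sign between genotypes turned when 1 library was left out were Fbp1 (range -1.13 to 0.87; -1.13 when Jag1Ndr/Ndr replicate 1 was omitted, -0.27 when the shared library was, -0.01 when Jag1Ndr/+ replicate 1 was), Gys2 (-0.11 to 0.39; the former when Jag1Ndr/Ndr replicate 2 was omitted), Pck1 (-7.38 to 0.06; -7.38 when Jag1Ndr/Ndr replicate 2 was omitted, which leaves 1 homozygous library, at 0 UMIs, assumed to vary like the others) and Slc2a2 (-0.09 to 0.22, the former when Jag1Ndr/Ndr replicate 2 was omitted; also -0.09 with mixed clusters, which at E16.5 is the same set of cells as the clusters with Alb among their leading genes). Keeping the clusters with Alb among their leading genes added the mixed cluster of 3535 cells, rich in erythroid markers, at E16.5 and changed nothing at P3, so that its stage values set a mixed class against an unmixed one. Between stages, Gys2 ranged from -0.08 (library C omitted) to 0.18 when 1 library was left out and was -0.01 with a mitochondrial maximum of 10%, 0.46 (adjusted p 0.0512) with that unlike pair of classes and 0.26 without libraries A and B; Ppargc1a turned to -0.33 without libraries A and B and passed with the unlike classes (0.68, adjusted p 0.0461).
Pygl no longer passed with the unlike classes (-0.27, adjusted p 0.166), where Slc2a2 was 0.87 (0.00107). Slc2a2 no longer passed without a filter (0.42, 0.0689), with a mitochondrial maximum of 10% (0.40, 0.0797) or with mixed clusters (0.35, 0.11). The inclusion of mixed clusters and the omission of libraries A and B were chosen after seeing the data. G6pc, Pck1 and Tat at E16.5 rest on 14, 87 and 31 UMIs, which limits the precision of their folds.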

Other observations

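Insulin, the hormone that represses gluconeogenic genes, is not made by hepatocytes, yet P3 library B held its transcripts, nearly all of them in 1 barcode. Kept cells of library B held 27851 UMIs of Ins1 and Ins2, of which 1 barcode held 27342 (98.2%), on a total of 62341 UMIs. That barcode lay in a cluster named erythroid-like. At least 1 insulin UMI was found in 492 of 15756 kept barcodes (3.12%), and only 1 of them had more than 100. In each other library the whole count of each gene was at most 10 UMIs. Pck1, Fbp1 and G6pc in hepatocyte-like cells of library B measured 829, 1005 and 49.9 CPM, those of library A measured 840.6, 952 and 98.4 CPM, those of C measured 467, 2003 and 224 CPM, and those of D measured 725, 1763 and 256 CPM. A link between these levels and the insulin transcripts was not tested, and a transcript in a droplet does not measure insulin acting on hepatocytes.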
